A study of Mus musculus with 12 samples.

Results

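*Cd34*, *Mecom*, *Hlf*, *Meis1*, *Hoxa9*, *Cd48*, *Slamf1*, *Runx1*, and *Erg* are 9 genes known from hematopoietic stem cells and multipotent progenitors, and they were taken by name from the 47643 genes of the deposited table. All 9 were found. Their RNA was measured by poly(A)+ RNA-seq in common lymphoid progenitors (CLPs) sorted as Lin- Sca1lo cKitlo IL7Ra+ cells from adult bone marrow, with 1 library per male mouse. The groups were 4 WT mice, 4 ∆*Firre* mice, in which the locus of the long noncoding RNA *Firre* was deleted in the germline, and 4 *Firre* rescue mice, which carried the same deletion, a transgene of *Firre* cDNA under a tetracycline-responsive element, and the activator rtTA driven by the ubiquitous CAG promoter, and which were fed doxycycline. The comparison of ∆*Firre* with WT asks what changed with the deletion, and the comparisons of *Firre* rescue ask what changed once *Firre* RNA was made from the transgene. Doxycycline diet is named in the study's methods for *Firre* rescue alone, so transgene, activator, and diet cannot be told apart.

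Stem cells and multipotent progenitors hold their state through a network of transcription factors, and they pass through surface states that are used to sort them. CD34 is a sialomucin of progenitors. CD48 and SLAMF1 (CD150) are receptors of the SLAM family, whose pattern separates stem cells from later progenitors. *Runx1* and *Erg* encode factors of the group called the heptad, which bind blood cell enhancers together. *Meis1* and *Hoxa9* encode homeodomain partners, *Mecom* encodes the zinc finger factor EVI1, and *Hlf* encodes a PAR bZIP factor, and all of them are known as regulators of stem cells and as oncogenes in leukemia. CLPs lie downstream of these cells.

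The genes lie on 5 chromosomes of GRCm38, the build to which the authors mapped. On chromosome 1, *Cd48* (chr1:171681245-171705258) and *Slamf1* (chr1:171767131-171801184) are neighbors in the SLAM cluster, 61873 bases apart, and *Cd34* lies at chr1:194938821-194961292. Chromosome 11 holds *Meis1* (chr11:18880428-19019651) and *Hlf* (chr11:90336535-90390917), and chromosome 16 holds *Runx1* (chr16:92601466-92826074) and *Erg* (chr16:95359169-95586600). *Mecom* lies at chr3:29951296-30509759, and *Hoxa9* lies in the HoxA cluster at chr6:52223097-52227370. All are protein-coding. The exon length behind the TPM (a measure of transcript abundance per exon length) of *Hoxa9*, 5580 bases, is longer than its 4274 bases in RefSeq, so its counted model reaches beyond the RefSeq gene, and reads of neighboring Hoxa transcripts may be counted with it.

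Promoters of *Hoxa9*, *Hlf*, and the upstream start of *Runx1* are shown because these genes had the largest log2 fold changes of *Firre* rescue among the 8 of the 9 genes that were tested. Each is the stretch of 250 bases before the start on the gene's strand (RefSeq, GRCm38.p6), at chr6:52227371-52227620, chr11:90390918-90391167, and chr16:92826075-92826324, all on the minus strand. Capitals mark GGAA on either strand, the core letters bound by ETS factors such as ERG and FLI1.
Hoxa9: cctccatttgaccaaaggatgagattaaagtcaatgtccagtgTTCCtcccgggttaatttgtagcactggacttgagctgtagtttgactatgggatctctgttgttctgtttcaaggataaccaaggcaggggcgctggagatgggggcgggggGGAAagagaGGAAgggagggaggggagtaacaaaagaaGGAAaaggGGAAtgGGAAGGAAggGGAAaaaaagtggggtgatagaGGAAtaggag
Hlf: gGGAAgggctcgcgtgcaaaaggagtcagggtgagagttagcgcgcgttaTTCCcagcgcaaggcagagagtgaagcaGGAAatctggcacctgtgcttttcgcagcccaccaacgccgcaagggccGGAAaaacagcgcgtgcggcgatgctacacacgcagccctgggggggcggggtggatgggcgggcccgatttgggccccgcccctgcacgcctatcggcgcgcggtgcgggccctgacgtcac
Runx1: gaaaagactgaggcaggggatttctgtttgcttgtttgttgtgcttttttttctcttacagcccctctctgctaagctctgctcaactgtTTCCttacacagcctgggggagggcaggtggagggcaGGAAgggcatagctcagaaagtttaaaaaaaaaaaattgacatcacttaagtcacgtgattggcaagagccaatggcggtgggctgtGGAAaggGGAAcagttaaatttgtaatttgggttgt
The *Hoxa9* stretch holds 9 such matches, a number reached by 0.505% of 32851 promoters of this length, whose median is 3. The *Hlf* and *Runx1* stretches hold 4 each, a number reached by 33.4% of promoters. The 9 genes have 13 promoters in the table, since *Runx1* and *Mecom* have 2 starts each and *Erg* has 3. Of these 13, 12 hold GGAA (92.3%, against 93.4% of all promoters) and 9 hold GATA (69.2% against 53.6%). TGTGGT, the letters of RUNX factors, is in 2 (15.4% against 14.0%), CANNTG, the E-box, is in 8 (61.5% against 66.2%), and TGACAG, the letters of MEIS factors, is in 2 (15.4% against 15.9%). Both strands were searched, and matches of different motifs may share bases. A match describes letters and is not a measured binding site.

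Between 10977854 and 18151119 reads per WT library, 14351439 to 17571285 per ∆*Firre* library, and 25745000 to 32532996 per *Firre* rescue library were recovered from the TPM values, and they cover counting error only. Genes above 0 numbered 15472 to 19877 per WT library, 17910 to 19098 per ∆*Firre* library, and 15140 to 16835 per *Firre* rescue library. *Firre* itself ranged from 25.2 to 31.6 TPM in WT, was 0 in all ∆*Firre* libraries, and ranged from 59.9 to 174 TPM in *Firre* rescue. The *Firre* rescue libraries carry a range of library numbers of their own, whereas WT and ∆*Firre* share 2 further ranges of numbers, each with 2 libraries of either genotype. For *Firre* rescue, the group and the range cannot be told apart. On the deposited scale most genes were lower in *Firre* rescue: the median log2 fold change over the 14479 genes tested was -0.16 against ∆*Firre* and -0.21 against WT, and -0.06 for ∆*Firre* against WT. In bulk RNA, fewer cells of a type and less RNA per cell cannot be told apart.

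The 9 genes spanned a wide range of levels in these CLPs. Per length, *Cd48* had the highest level in all 12 libraries, with 383 ± 27.0 TPM in WT (SD, n = 4). *Cd34* followed with 226 ± 24.2 TPM, *Erg* with 135 ± 18.6 TPM, *Runx1* with 60.8 ± 9.51 TPM, and *Hoxa9* with 55.5 ± 6.40 TPM. *Meis1* had 28.3 ± 3.49 TPM, *Hlf* 12.8 ± 2.41 TPM, *Slamf1* 3.59 ± 0.312 TPM, and *Mecom* 0.918 ± 0.570 TPM. In WT, *Cd48* was above 97.96% and *Slamf1* above 18.1% of the genes tested. The order of neighbors was the same in all 12 libraries with 2 exceptions. *Runx1* exceeded *Hoxa9* in only 4 libraries, so their levels were not separated in any group. *Cd34* exceeded *Erg* in 11 libraries, the exception being *Firre* rescue replicate 3. The SLAM pair thus showed high *Cd48* and low *Slamf1* RNA in every library, while transcripts of the factors *Erg*, *Runx1*, *Hoxa9*, and *Meis1* remained well above the filter.

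**Figure D1:**
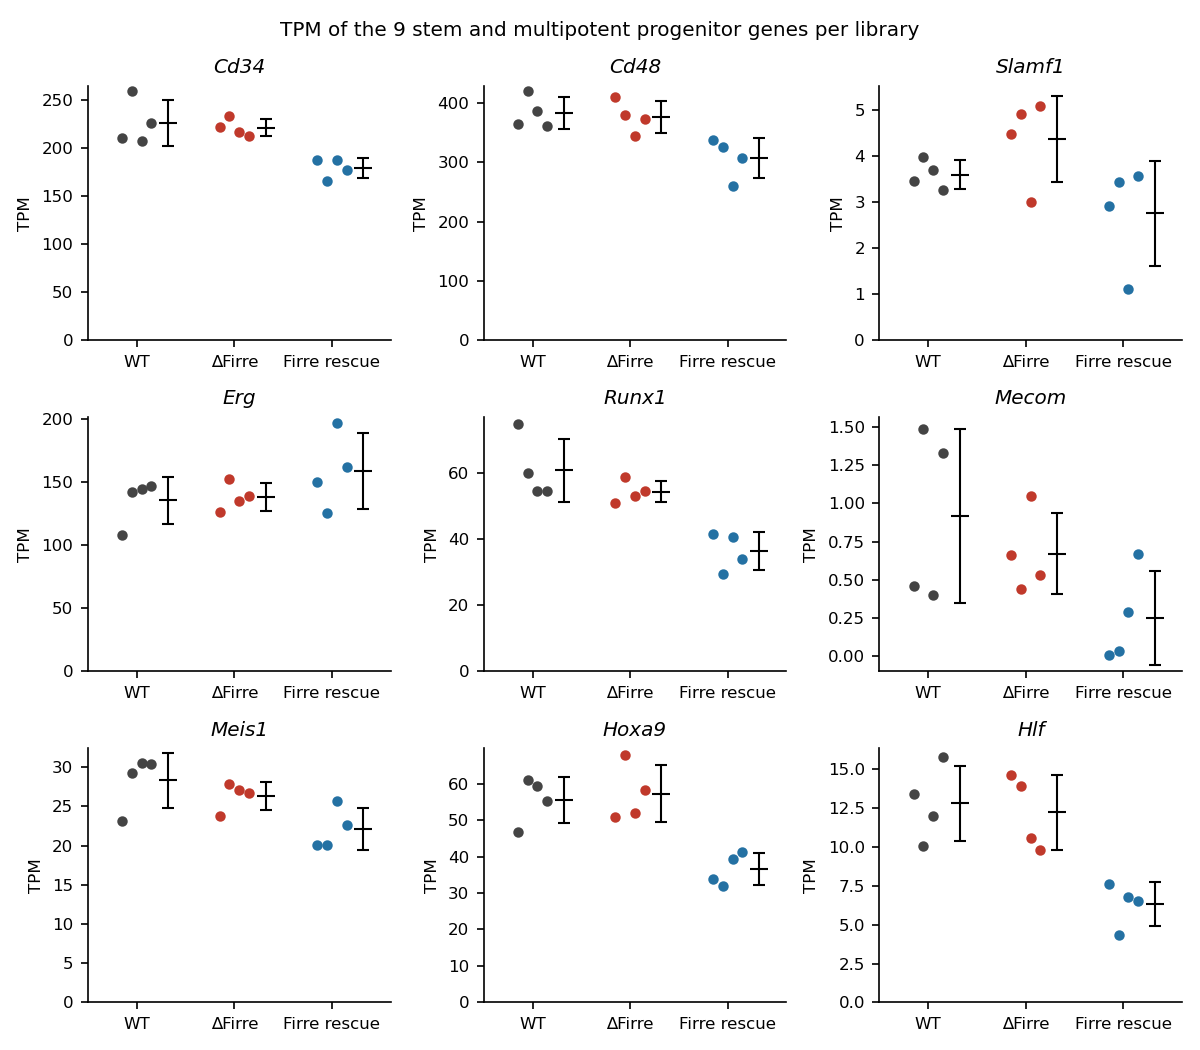
TPM of the 9 genes (y axis, each panel on its own linear scale) in 4 WT, 4 ∆*Firre*, and 4 *Firre* rescue libraries, with 1 point per library and mean ± SD beside the points. *Cd34*, *Cd48*, *Runx1*, *Hoxa9*, and *Hlf* of *Firre* rescue lie below all WT and ∆*Firre* libraries, whereas WT and ∆*Firre* overlap in every panel.

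Differences between ∆*Firre* and WT CLPs in these genes were no larger than the spread between mice. Genes whose mean reached 1 TPM were tested with limma on log2(TPM + 1) over all 12 libraries, and a gene passed where its p, adjusted by the Benjamini-Hochberg method, was at most 0.1. *Mecom* was below the filter, and none of the other 8 passed, none had an unadjusted p under 0.05, and none had groups that did not overlap, against 5.33% of all genes with separate groups. Over all genes 3 passed (0.0207%), 767 had an unadjusted p under 0.05, and limma-voom on recovered reads called 0. The log2 fold changes of the 8 genes lay between -0.15 (*Runx1*) and 0.21 (*Slamf1*), with adjusted p-values of 0.998 to 1 (limma). The intervals show what these 4 mice per group leave room for. For *Cd34* the 95% interval of the log2 fold change was -0.21 to 0.16, for *Cd48* it was -0.23 to 0.17, and for *Hoxa9* it was -0.24 to 0.32. It was -0.38 to 0.19 for *Meis1*, -0.44 to 0.14 for *Runx1*, and -0.26 to 0.33 for *Erg*. For the low genes it was wider, at -0.53 to 0.40 for *Hlf* and -0.43 to 0.84 for *Slamf1*.

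Within the library number ranges, where 2 ∆*Firre* and 2 WT libraries can be set side by side, *Runx1* was lower in ∆*Firre* in both, by -0.13 and -0.17 on the log2 scale, and *Hlf* in both, by -0.02 and -0.11. *Slamf1* differed by 0.03 in one range and 0.39 in the other. *Cd34*, *Meis1*, *Hoxa9*, *Cd48*, and *Erg* differed in opposite directions in the 2 ranges, for example -0.17 and 0.25 for *Hoxa9* and -0.15 and 0.22 for *Erg*.

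**Figure D2:**
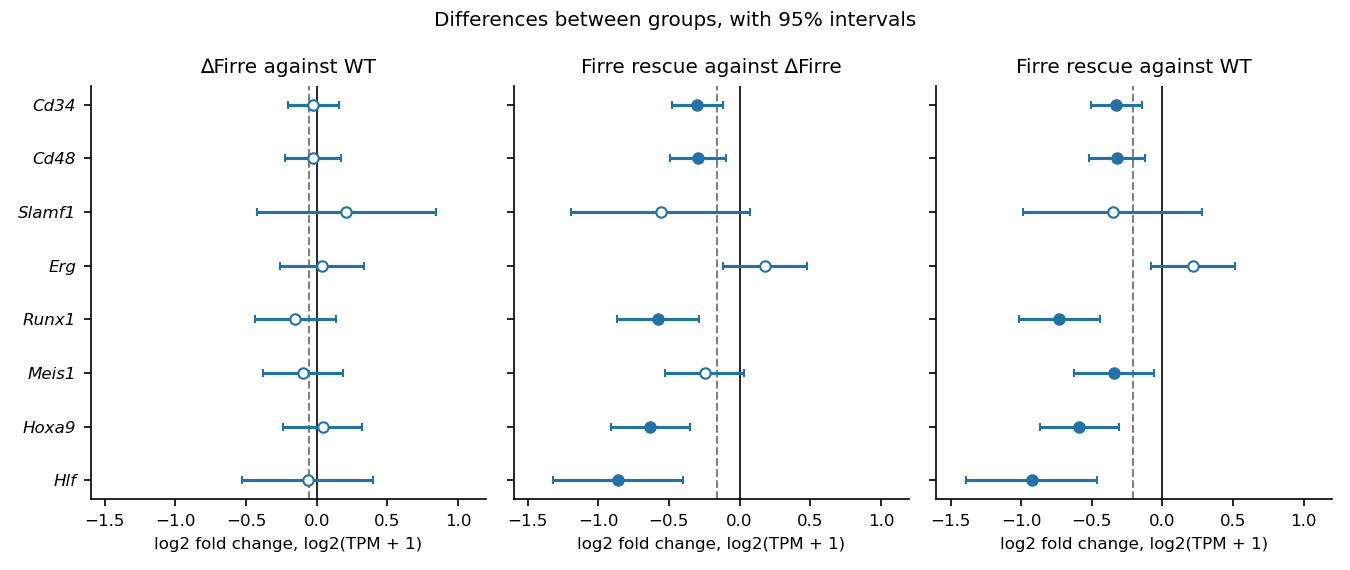
Log2 fold changes on the log2(TPM + 1) scale (x axis) of the 8 tested genes in the 3 comparisons, as points with 95% intervals, filled where the adjusted p was 0.1 or less. The dashed line marks the median of all genes tested. No gene is filled for ∆*Firre* against WT, 5 are for *Firre* rescue against ∆*Firre*, and 6 for *Firre* rescue against WT, all of them below 0.

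*Firre* rescue CLPs had lower TPM of most of these genes. Against ∆*Firre*, 5 of the 8 tested genes were lower (*Cd34*, *Hlf*, *Hoxa9*, *Cd48*, and *Runx1*) and none was higher, where 27.9% of all genes passed and 19.3% were lower. Against WT, 6 of 8 were lower, the same 5 and *Meis1*, where 24.3% of all genes passed and 19.4% were lower. The tally by direction depended on the scaling. Quantile normalization gave 5 lower and none higher in both comparisons, and removing immunoglobulin, mitochondrial, and ribosomal protein genes and *Firre* gave 4 lower (*Cd34*, *Hlf*, *Hoxa9*, and *Runx1*) and none higher. Median ratio scaling and limma-voom each gave 3 lower genes (*Hlf*, *Hoxa9*, and *Runx1*) and 1 higher (*Erg*) in both comparisons, and the GC correction gave 1 lower (*Hoxa9*) and 1 higher (*Erg*) against ∆*Firre*, and 2 lower (*Hlf* and *Runx1*) and 1 higher (*Erg*) against WT. On TPM as deposited, the groups did not overlap for *Cd34*, *Hlf*, *Hoxa9*, *Cd48*, and *Runx1* in either comparison, against 15.6% of all genes lower without overlap against ∆*Firre* and 14.5% against WT. The median of the 8 genes was -0.43 against ∆*Firre* and -0.35 against WT, beside the medians over all genes of -0.16 and -0.21. Both comparisons use the same *Firre* rescue libraries and are not independent of each other.

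Among the tested transcription factors, *Hlf* had the largest difference on the log2(TPM + 1) scale. Its TPM values were 13.4, 10.04, 12.01, and 15.8 in WT, 14.6, 13.9, 10.6, and 9.78 in ∆*Firre*, and 7.63, 4.32, 6.76, and 6.50 in *Firre* rescue. Every *Firre* rescue library lay below every other library. The log2 fold change was -0.86 ± 0.21 against ∆*Firre* (SE, adjusted p = 0.0159, limma) and -0.93 ± 0.21 against WT (adjusted p = 0.0129). With a correction for exon GC content the first was -0.51 (adjusted p = 0.104) and missed the threshold, whereas the second passed at -0.60 (adjusted p = 0.0699).

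*Hoxa9* ranged from 46.6 to 60.8 TPM in WT, with libraries at 46.6, 60.8, 59.3, and 55.2. The ∆*Firre* libraries had 50.9, 67.9, 52.0, and 58.2 TPM, and the *Firre* rescue libraries had 33.8, 31.8, 39.4, and 41.2 TPM. The lowest WT library, replicate 6, was still above the highest *Firre* rescue library. *Hoxa9* differed by a log2 fold change of -0.63 ± 0.13 against ∆*Firre* (adjusted p = 0.00638, limma) and -0.59 ± 0.13 against WT (adjusted p = 0.0101). *Hoxa9* was the only one of the lower genes that passed against ∆*Firre* also with the GC correction, at -0.40 (adjusted p = 0.0632), while against WT that correction gave -0.35 (adjusted p = 0.116).

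*Runx1*, which encodes the DNA-binding subunit of core binding factor, had 74.5, 59.7, 54.4, and 54.4 TPM in WT and 50.9, 58.6, 53.0, and 54.4 TPM in ∆*Firre*. In *Firre* rescue it had 41.4, 29.4, 40.5, and 33.8 TPM, below all 8 other libraries. The log2 fold change was -0.58 ± 0.13 against ∆*Firre* (adjusted p = 0.0117, limma) and -0.73 ± 0.13 against WT (adjusted p = 0.00411). With the GC correction the difference from ∆*Firre* was -0.26 (adjusted p = 0.200) and no longer passed, and the difference from WT was -0.43 (adjusted p = 0.0436).

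*Meis1*, whose protein binds DNA with HOX and PBX partners, had 23.2, 29.2, 30.5, and 30.4 TPM in WT, 23.8, 27.8, 27.1, and 26.7 TPM in ∆*Firre*, and 20.1, 20.02, 25.7, and 22.6 TPM in *Firre* rescue. The groups overlapped in both comparisons. Its log2 fold change was -0.25 ± 0.13 against ∆*Firre* (adjusted p = 0.201, limma), and -0.34 ± 0.13 against WT (adjusted p = 0.0901). The call against WT was at the edge of the threshold: it was lost in 8 of 14 other settings and in 10 of 12 leave-one-out fits, where the adjusted p rose to 0.189 at most, and it was kept without WT replicate 6 and without *Firre* rescue replicate 3. Without *Firre* rescue replicate 3 *Meis1* also passed against ∆*Firre* (-0.32, adjusted p = 0.0871), and with the GC correction its log2 fold changes became 0.13 against ∆*Firre* and 0.0045 against WT.

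*Erg*, alone of the tested genes, had its highest mean in *Firre* rescue, but it did not pass on TPM as deposited. It had 108, 142, 145, and 147 TPM in WT, 126, 152, 135, and 139 TPM in ∆*Firre*, and 150, 125, 197, and 162 TPM in *Firre* rescue. The *Firre* rescue libraries overlapped with both other groups, and the highest and the next highest values of all 12 were *Firre* rescue replicates 3 and 4. The log2 fold change was 0.18 ± 0.14 against ∆*Firre* (adjusted p = 0.377, limma) and 0.22 ± 0.14 against WT (adjusted p = 0.2999). It was positive under every other setting, and with median ratio scaling it passed as higher, at 0.30 (adjusted p = 0.0805) and 0.41 (adjusted p = 0.0347). It also passed with limma-voom and with the GC correction, which gave 0.40 and 0.45.

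Of the surface molecules, *Cd34* had 211, 260, 207, and 227 TPM in WT, 222, 234, 217, and 213 TPM in ∆*Firre*, and 188, 166, 188, and 177 TPM in *Firre* rescue. The *Firre* rescue values were the lowest of all 12. *Cd34* differed by a log2 fold change of -0.30 ± 0.08 against ∆*Firre* (adjusted p = 0.0264, limma) and -0.33 ± 0.08 against WT (adjusted p = 0.0208). Relative to the median of all genes the differences were -0.14 and -0.12. Both calls were lost with median ratio scaling (-0.18 and -0.14), with limma-voom (-0.18 and -0.13), and with the GC correction (-0.05 and -0.08), and both were kept with quantile normalization (-0.25 and -0.24) and after removing the gene classes named above (-0.24 and -0.22).

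*Cd48* had 364, 420, 386, and 361 TPM in WT, 409, 379, 344, and 372 TPM in ∆*Firre*, and 338, 325, 260, and 307 TPM in *Firre* rescue. The groups did not overlap, with the lowest ∆*Firre* library 344 and the highest *Firre* rescue library 338. The log2 fold change was -0.29 ± 0.09 against ∆*Firre* (adjusted p = 0.0433, limma) and -0.32 ± 0.09 against WT (adjusted p = 0.0340), that is -0.13 and -0.11 relative to the median of all genes. Both calls were lost with median ratio scaling, with limma-voom, and after removing immunoglobulin, mitochondrial, and ribosomal protein genes and *Firre* (adjusted p = 0.142 and 0.209), and with the GC correction the signs turned, to 0.13 and 0.07. Quantile normalization kept both calls (-0.30 in each). Without ∆*Firre* replicate 8 the call against ∆*Firre* was also lost (-0.25, adjusted p = 0.113). The exons of *Cd48* have 42.0% GC, against a median of 49.5% over the genes tested.

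*Slamf1* was low throughout, with 3.45, 3.97, 3.69, and 3.25 TPM in WT, 4.46, 4.90, 3.01, and 5.08 TPM in ∆*Firre*, and 2.92, 3.44, 1.11, and 3.55 TPM in *Firre* rescue. These values rest on 72 to 236 reads per library. The groups overlapped, and *Firre* rescue replicate 3 was the lowest of all libraries. Its log2 fold change was -0.56 ± 0.29 against ∆*Firre* (adjusted p = 0.200, limma) and -0.35 ± 0.29 against WT (adjusted p = 0.440). Without *Firre* rescue replicate 3 these were -0.30 and -0.09, and quantile normalization gave 0.14 against WT.

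*Mecom* was near the limit of detection. It had 0.457, 1.49, 0.398, and 1.33 TPM in WT, 0.660, 0.443, 1.05, and 0.532 TPM in ∆*Firre*, and 0.00881, 0.0361, 0.289, and 0.666 TPM in *Firre* rescue, from between 1 and 78 reads. A single read in *Firre* rescue replicate 1 has an exact 95% Poisson interval of 0.000223 to 0.0491 TPM, while 78 reads in replicate 4 have one of 0.527 to 0.832 TPM. Counting error alone is covered by these intervals, not the spread between mice. Both WT libraries above 1 TPM belong to the same library number range. Without the filter the log2 fold change was -0.44 ± 0.24 against ∆*Firre* (adjusted p = 0.334, limma) and -0.60 ± 0.24 against WT (adjusted p = 0.184).

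**Figure D3:**
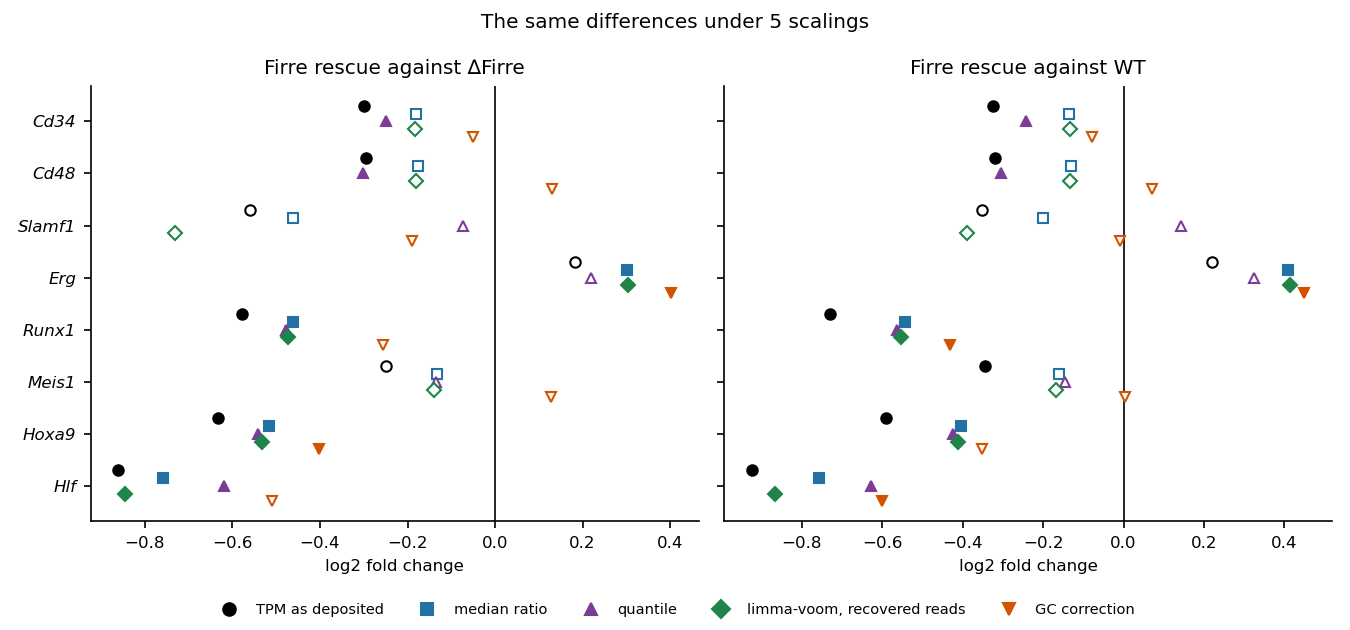
Log2 fold changes (x axis) of the 8 tested genes in *Firre* rescue against ∆*Firre* (left) and WT (right) under 5 scalings, with filled symbols where the adjusted p was 0.1 or less. *Hlf*, *Hoxa9*, and *Runx1* stay below 0 and *Erg* above 0 under all 5, whereas *Cd48* and *Meis1* cross to above 0 with the GC correction.

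The split of calls over all genes also changed with the scaling. Of the calls against ∆*Firre*, 69.3% were lower on TPM as deposited, 49.8% with median ratio scaling, 54.4% with limma-voom, and 29.7% with the GC correction. Against WT the shares were 80.1%, 49.4%, 55.2%, and 33.1%.

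The relatives and partners of these genes were described by 10 lists, which together hold 84 tested genes besides the 8. None of the 84 passed for ∆*Firre* against WT, with a lowest adjusted p of 0.889 (limma). Against ∆*Firre*, 36 passed in *Firre* rescue, 8 higher and 28 lower, and 32 passed against WT, 5 higher and 27 lower. Over all genes, 27.9% passed and 19.3% were lower against ∆*Firre*, and 24.3% and 19.4% against WT, and the counts of each list below stand beside these shares. The median log2 fold changes of the 84 were -0.12 and -0.23, beside -0.16 and -0.21 over all genes. The heptad had 6 of 7 genes called against ∆*Firre*, 5 lower and 1 higher. *Gata2*, a factor of stem cells and also of basophils and mast cells, ranged from 20.8 to 178 TPM in WT, from 28.9 to 48.6 TPM in ∆*Firre*, and from 0 to 0.565 TPM in *Firre* rescue, a log2 fold change of -5.04 ± 0.50 (adjusted p = 8.19e-05, limma). *Tal1*, a bHLH factor of blood and erythroid cells, differed by -0.90 ± 0.19 against ∆*Firre* (adjusted p = 0.0074). *Lyl1*, its close relative, ranged from 81.2 to 118 TPM in ∆*Firre* and from 134 to 225 TPM in *Firre* rescue and rose by 1.01 ± 0.17 (adjusted p = 0.00208), beside 128 to 171 TPM in WT. Its difference between ∆*Firre* and WT was -0.63 (adjusted p = 0.889).

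**Figure D4:**
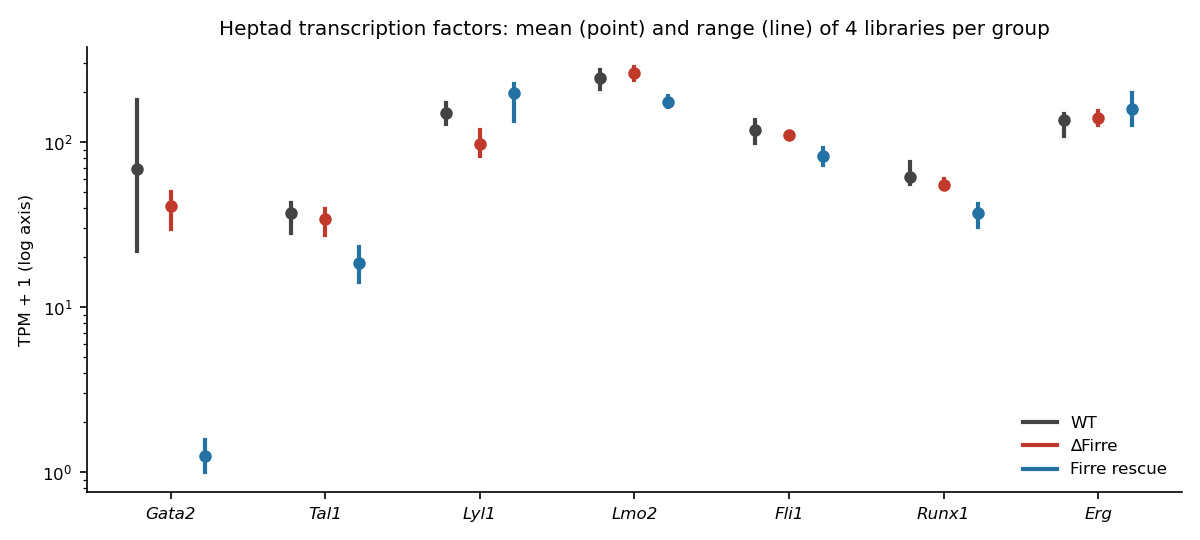
TPM + 1 (y axis, log scale) of the 7 heptad factors, with the mean as a point and the lowest to highest of 4 libraries as a line for each group. *Gata2* falls to near 0 TPM in *Firre* rescue, *Tal1*, *Lmo2*, *Fli1*, and *Runx1* are lower there, and *Lyl1* and *Erg* have their highest mean there.

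Among HOX, TALE, and MLL partners, 5 of 17 tested genes passed against ∆*Firre* (2 higher, 3 lower) and 6 of 17 against WT (1 higher, 5 lower), beside 27.9% and 24.3% of all genes, so the counts of this list lay near the background. *Hoxa10*, the neighbor of *Hoxa9*, was lower by -1.22 ± 0.40 against ∆*Firre* (adjusted p = 0.0493, limma), with 1.75 to 5.71 TPM in ∆*Firre* and 0 to 1.76 TPM in *Firre* rescue. That call was lost in 3 of 25 alternatives. Against WT, the *Hoxa10* call was lost in 11 of 25, among them median ratio scaling, limma-voom, and the GC correction. *Men1*, which encodes menin, the tether of MLL complexes, was higher by 1.06 ± 0.21 (adjusted p = 0.00475), and *Pbx2* by 0.40 ± 0.16 (adjusted p = 0.0927). The *Pbx2* call was lost in 12 of 26 alternatives. Against WT, *Pbx3* was lower by -0.80 ± 0.31 (adjusted p = 0.0938), a call lost in 20 of 25 alternatives. In the RUNX list, 2 of 6 were lower against ∆*Firre* and 3 of 6 against WT, and *Runx2* differed by -0.55 ± 0.16 and -0.60 ± 0.16. The *Runx2* groups overlapped in both comparisons, and both calls were lost with the GC correction.

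On TPM as deposited, the ETS list, to which *Erg* belongs, had 8 of 13 genes lower and none higher in both comparisons, beside 19.3% and 19.4% of all genes. *Fli1*, the closest relative of *Erg*, ranged from 97.7 to 135 TPM in WT, from 103 to 115 TPM in ∆*Firre*, and from 72.0 to 91.1 TPM in *Firre* rescue, and was lower by -0.43 ± 0.11 against ∆*Firre* (adjusted p = 0.021, limma). *Ets1* was lower by -0.40 ± 0.16 (adjusted p = 0.0963). Both calls were lost with median ratio scaling, limma-voom, and the GC correction. Under these 3 settings *Erg* passed as higher in both comparisons. In the PAR bZIP list, 3 of 4 genes passed in both comparisons, *Hlf* itself among them, beside 27.9% and 24.3% of all genes. *Nfil3*, which encodes a bZIP repressor of the same sites as HLF, was lower by -0.88 ± 0.20 against ∆*Firre* (adjusted p = 0.00966), and *Dbp*, an activator of that family under the circadian clock, was higher by 0.65 ± 0.20 (adjusted p = 0.0366). The *Dbp* call was lost in 2 of 26 alternatives against ∆*Firre*, among them the GC correction, and in 10 of 26 against WT. Of the PRDM relatives of *Mecom*, 2 of 7 were lower against ∆*Firre*, *Prdm1* by -1.57 ± 0.41 and *Prdm4* by -0.37 ± 0.11, the latter lost under the same 3 settings, and 0 of 7 passed against WT, where *Prdm2*, the highest of them, differed by -0.06 ± 0.16 (adjusted p = 0.821).

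The SLAM list had 4 genes lower and 1 higher of 7 in both comparisons, beside 19.3% and 19.4% of all genes lower. *Cd84* was lower by -0.97 ± 0.14 against ∆*Firre* (adjusted p = 0.00102, limma), with 58.7 to 63.5 TPM in ∆*Firre* and 24.7 to 35.3 TPM in *Firre* rescue. *Slamf7* was lower by -1.58 ± 0.28 (adjusted p = 0.00307), and *Slamf6*, a SLAM receptor of lymphocytes, was higher by 0.97 ± 0.26 (adjusted p = 0.0222). In the short list of *Cd34* relatives, *Cd34* itself was the 1 gene of 3 tested that was lower against ∆*Firre*. Against WT, 2 of the 3 were lower, *Cd34* among them.

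Several other genes that define stem cells were near the limit of detection. *Procr*, *Fgd5*, *Hoxb5*, *Vwf*, *Tek*, and *Esam* were below the filter, with no library above 2.62 TPM, and *Procr* and *Hoxb5* were listed at 0 in 6 of 12 libraries each. Of the 17 tested genes of that list, 8 passed against ∆*Firre* (1 higher, 7 lower) and 6 against WT, all lower, beside 27.9% and 24.3% of all genes. *Itga2b*, which encodes CD41 of megakaryocytes and also of basophils and mast cells, ranged from 21.3 to 30.8 TPM in ∆*Firre* and from 0.121 to 1.45 TPM in *Firre* rescue, and was lower by -3.87 ± 0.39 (adjusted p = 9.27e-05, limma). *Mycl* was higher by 0.45 ± 0.16 (adjusted p = 0.0707), a call lost in 7 of 26 alternatives, among them the GC correction (0.32) and the fits without ∆*Firre* replicate 8 (0.38), ∆*Firre* replicate 9 (0.35), or *Firre* rescue replicate 1 (0.35). In ∆*Firre* against WT, genes named for the highest level in their list, not for their difference, differed little. These were *Dntt* by 0.01 ± 0.12, *Elf1* by 0.01 ± 0.08, *Cbfb* by 0.01 ± 0.09, and *Lmo2* by 0.10 ± 0.09. Each had an adjusted p of at least 0.9986 (limma). The same held for *Angpt1* (-0.05 ± 0.13), *Kmt2a* (-0.15 ± 0.19), *Nfil3* (-0.08 ± 0.20), and *Prdm2* (-0.13 ± 0.16). Over all 84 genes the log2 fold changes ran from -1.01 to 0.82, and none passed.

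Markers of other blood cells moved between the groups beside these differences. The 4 genes of the CLP gate (*Il7r*, *Kit*, *Ly6a*, and *Flt3*) summed to between 974.9 and 1270 TPM in all 12 libraries, with 1 of 4 lower in *Firre* rescue in both comparisons. Basophil and mast cell markers summed to 1052 to 9045 TPM in WT, 2918 to 4291 TPM in ∆*Firre*, and 64.0 to 142 TPM in *Firre* rescue, and all 6 tested genes of 8 were lower there. *Cma1* was at 0 in all 12 libraries. WT replicate 6 held the highest sum, and in the same library *Runx1* was highest and *Meis1*, *Erg*, and *Hoxa9* were lowest of WT. Without this library *Runx1*, *Hlf*, *Hoxa9*, *Cd34*, and *Cd48* all passed in both comparisons. B lineage markers summed to 215 to 420 TPM in WT, 282 to 373 TPM in ∆*Firre*, and 835 to 1340 TPM in *Firre* rescue, with 7 of 8 higher and 1 lower. Megakaryocyte markers summed to 71.2 to 243 TPM in WT, 48.7 to 92.1 TPM in ∆*Firre*, and 3.77 to 37.9 TPM in *Firre* rescue. Of the 4 tested, 2 were lower against ∆*Firre* and 3 against WT, beside 19.3% and 19.4% of all genes. *Itga2b* was among them in both comparisons. *Gp9* had its highest mean in *Firre* rescue, 8.62 TPM beside 7.24 TPM in WT and 3.30 TPM in ∆*Firre*, and did not pass. The part of all these marker lists in the differences of the 9 genes was not tested.

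**Figure D5:**
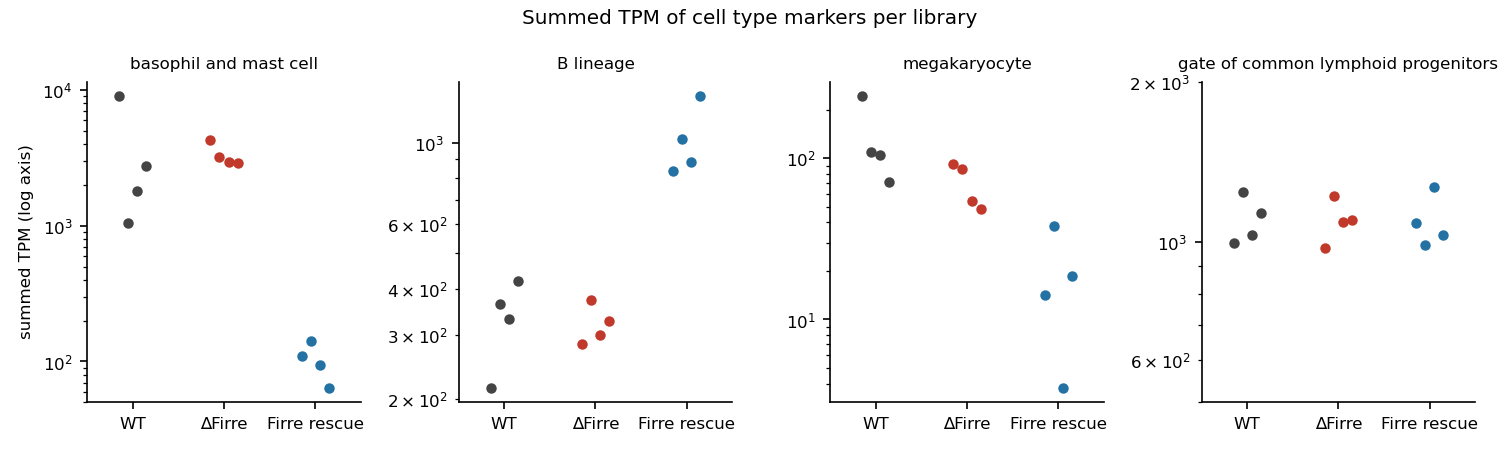
Summed TPM of marker genes (y axis, log scale) of basophils and mast cells, the B lineage, megakaryocytes, and the CLP gate with *Flt3* added. Each point is 1 library. *Firre* rescue libraries lie below all others for basophil and megakaryocyte markers and above all others for the B lineage. The groups overlap for the sum of the gate genes and *Flt3*.

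The other marker lists are set beside the 27.9% of all genes that passed against ∆*Firre* and the 19.3% that were lower. Natural killer markers had 4 of 6 genes lower, group 2 innate lymphoid markers 3 lower and 1 higher of 4, plasmacytoid dendritic markers 2 lower and 3 higher of 6, and plasma cell markers 3 lower and 2 higher of 6. The plasma cell markers summed to 872 to 1636 TPM in WT, 1614 to 3412 TPM in ∆*Firre*, and 306 to 528 TPM in *Firre* rescue, and the plasmacytoid dendritic markers to 1061 to 1279 TPM, 1023 to 1079 TPM, and 1638 to 2175 TPM. Much of the sum in *Firre* rescue was *Ly6d*, a surface marker that B lineage progenitors also carry, which ranged from 1065 to 1560 TPM there, from 457 to 586 TPM in WT, and from 458 to 547 TPM in ∆*Firre*. *Tcf4*, the transcription factor that specifies plasmacytoid dendritic cells, ranged from 33.1 to 47.3 TPM in *Firre* rescue, from 51.8 to 84.4 TPM in WT, and from 50.6 to 64.1 TPM in ∆*Firre*, and was lower in *Firre* rescue by -0.65 ± 0.16 against ∆*Firre* (adjusted p = 0.015, limma). *Jchain*, which encodes the joining chain of secreted antibodies, ranged from 619 to 1296 TPM in WT, from 1369 to 3110 TPM in ∆*Firre*, and from 1.18 to 195 TPM in *Firre* rescue. It was lower in *Firre* rescue by -6.23 ± 0.98 against ∆*Firre* (adjusted p = 0.00145, limma) and by -4.94 ± 0.98 against WT (adjusted p = 0.00611). In ∆*Firre* it lay above all WT libraries, with a log2 fold change of 1.29 ± 0.98 that did not pass (adjusted p = 0.986). Most of the plasma cell sum was *Jchain* in WT (means of 924 of 1200 TPM) and ∆*Firre* (2313 of 2592 TPM). The 2 higher plasma cell markers were *Sdc1*, by 0.68 ± 0.19 against ∆*Firre* (adjusted p = 0.0271, limma), and *Mzb1*, by 1.34 ± 0.27 (adjusted p = 0.0061). The part of these markers in the differences of the 9 genes was not tested. T lineage markers had 2 of 5 lower, and neutrophil (of 8), erythroid (of 6), and endothelial (of 4) markers had 1 lower each, with no monocyte marker called of 5. The neutrophil sum ranged widely within each group, from 129 to 1607 TPM in *Firre* rescue alone.

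For each tested gene, the gene with the most similar profile over the 12 libraries was taken by the smallest root mean square difference between standardized values among 13085 genes. These were *Pter* for *Hlf* (0.189), *Atat1* for *Hoxa9* (0.242), *Polr2b* for *Cd48* (0.245), *Tbc1d23* for *Cd34* (0.264), *Neat1* for *Runx1* (0.283), *Kifap3* for *Slamf1* (0.309), *Foxp1* for *Meis1* (0.333), and *2900026A02Rik* for *Erg* (0.452). *Neat1*, a nuclear long noncoding RNA, ranged from 17.1 to 32.2 TPM in WT, from 16.7 to 20.6 TPM in ∆*Firre*, and from 2.20 to 6.68 TPM in *Firre* rescue. None of the 8 tested genes was the nearest of another, and *Mecom*, below the filter, was not compared.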

How the data were processed

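Poly(A)+ RNA of sorted CLPs was sequenced by the authors as paired ends on an Illumina HiSeq, with 1 library per mouse (CATS kit). Per the labels and the study's methods, reads were trimmed with cutadapt, mapped to mm10 with TopHat2 2.1.1, and counted per Gencode gene with featureCounts, and the authors deposited TPM for 47643 genes in 12 libraries. Strand and multi-mapping settings are not given in the sources used here. Groups came from the genotype label, and every sample column was used (0 left out).

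Gene names were joined by Ensembl identifier (32799 matched). *Firre* is listed there by its synonym *6720401G13Rik*. Genes whose mean reached 1 TPM were tested (14479) with limma 3.58.1 in R 4.3.3, with a mean-variance trend, on log2(TPM + 1), all 12 libraries in one fit, two-sided, with Benjamini-Hochberg adjustment over all genes tested. Fold changes on this scale understate those of low genes. TPM keep no depth, but values were whole multiples of what 1 read is worth, and 100% of values above 0 came to whole reads within 0.02 reads. On simulated data with 200 genes changed 2-fold among 14479, the fit recovered 86.5%, 90.0%, and 84.0% of them when they were placed in ∆*Firre* against WT, in *Firre* rescue against ∆*Firre*, or in *Firre* rescue against WT, in this order, and also called 31, 14, and 14 unchanged genes. Exon GC content came from an older annotation by identifier, for 13086 genes (90.4%), and the correction fitted splines with 4 degrees of freedom per library. Tables were made with Python 3.11.15, numpy 2.4.6, pandas 2.3.3, and scipy 1.17.1.

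The 9 genes, the 10 lists of relatives, and the 13 marker lists were chosen with earlier results of these data known. Besides the 9, the text names at most 2 of the largest rises and 2 of the largest falls among called genes of each list and comparison, the gene of highest level where a list had none, the nearest profile of each tested gene, and marker and defining genes where they bear on a result. Some genes that this rule would name are not reported here. Alternatives were a pseudocount of 0.1 or 5, no filter or a mean TPM of at least 5, median ratio and quantile scaling, TPM recomputed after removing immunoglobulin, mitochondrial, and ribosomal protein genes and *Firre*, only the groups compared, no or a robust trend, an adjusted p of 0.05, blocks for mouse number and library number range, limma-voom on recovered reads, the GC correction, and each library left out. A fit of the genes with a GC value without the correction was added after seeing the data.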

Additional observations from a re-analysis of the deposited data

Results flagged for a closer look

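In groups of 4 libraries, a value was singled out where its gap to the nearest of the others relative to the range of the group exceeded Dixon's 95% critical value. Of 36 groups tested, 2 held such a value, and chance gives about 1.8. Both were in WT replicate 6. Its *Meis1* level was 4.60 on the log2(TPM + 1) scale, against 4.92 to 4.98 in the other WT libraries, a gap of 0.841 of the range. Its *Erg* level was 6.76, against 7.16 to 7.21, a gap of 0.901 of the range. The same library had the highest sum of basophil and mast cell markers, 9045 TPM, and whether that bears on these levels was not tested.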

How the results depend on the processing

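∆*Firre* against WT called 0 of these genes under every alternative run. Over all genes it called 3, and 6 without a filter, 1 each after removing immunoglobulin, mitochondrial, and ribosomal protein genes and *Firre*, with only the groups compared, and with a library number range block, and 1 to 5 with each library left out (1 without ∆*Firre* replicates 9 or 11, 5 without replicate 12). WT and ∆*Firre* mice share the numbers 8 and 11, which the labels do not call pairs, and same-numbered libraries did not deviate together (correlations of -0.03 and -0.04 across genes). With those numbers as a replicate block, 0 genes were called over all genes, 8 with the block and GC correction, and limma-voom called 0. The small differences of ∆*Firre* from WT changed sign as follows. With median ratio scaling *Cd34* was 0.0443, *Cd48* 0.0438, and *Hlf* 0.00097, with limma-voom *Cd34* was 0.0499 and *Cd48* 0.0465, with quantile normalization *Cd34* was 0.00805, and without the gene classes named above *Cd34* was 0.0207 and *Cd48* 0.02003. With the replicate block *Hoxa9* was -0.17 and *Erg* -0.15, and with block and GC correction *Hoxa9* was -0.19, *Erg* -0.16, and *Slamf1* -0.018. With each library left out, *Cd34* ranged from -0.0657 to 0.0433, *Cd48* from -0.0676 to 0.0189, *Hlf* from -0.166 to 0.0349, *Hoxa9* from -0.0411 to 0.095, and *Erg* from -0.0691 to 0.0788.

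In *Firre* rescue the GC correction called 2 of 8 genes against ∆*Firre* (1 lower, 1 higher) and 3 of 8 against WT (2 lower, 1 higher), and 2554 and 1996 over all genes in place of 4043 and 3512, of 13086 tested. Without the correction, these 13086 genes gave 3798 and 3344 calls, and 5 and 6 of the 8, all lower. With it, *Meis1* was 0.128 and 0.00446, *Cd48* was 0.13 and 0.0704, and against WT *Mef2c* was 0.0808. An adjusted p of 0.05 gave 2682 calls against ∆*Firre*, only the groups compared gave 2263 against WT, and quantile normalization gave *Slamf1* as 0.14 against WT. The cause was not tested. Leaving out libraries gave 4 to 6 of 8 against ∆*Firre* and 5 to 6 against WT. Counts of the lists of relatives were within 1.5 times in 759 of 810 alternatives. Of 40 calls of named genes in those lists, 22 were kept in every alternative run, and single alternatives gave the same call in 894 of 1036 cases. Of the 40, 10 changed with median ratio scaling, 8 with limma-voom, and 14 with the GC correction. The call of *Ets1* against ∆*Firre* was lost in 17 of 26 and that of *Pbx2* in 12 of 26. *Mecom* had 1 to 78 and *Slamf1* 72 to 236 reads per library, the fewest of the 9 genes.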

Other observations

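Genes of multipotent and lymphoid priming, which mark the step from multipotent progenitors to CLPs, passed about as often as all genes. Of 19 tested, 5 passed in *Firre* rescue against ∆*Firre* and 5 against WT, 2 higher and 3 lower each, beside 27.9% and 24.3% of all genes, and the medians were -0.02 and -0.10, beside -0.16 and -0.21 over all genes. *Tcf3*, which encodes E2A, ranged from 46.7 to 69.7 TPM in ∆*Firre* and from 108 to 166 TPM in *Firre* rescue and was higher by 1.30 ± 0.15 against ∆*Firre* (adjusted p = 0.000243, limma) and by 0.71 ± 0.15 against WT (adjusted p = 0.00977). *Rag1*, a subunit of the V(D)J recombinase, ranged from 155 to 251 TPM in ∆*Firre* and from 277 to 334 TPM in *Firre* rescue and was higher by 0.73 ± 0.15 (adjusted p = 0.00773). *Lmo2*, the LIM-only partner of TAL1 and LYL1, was lower by -0.59 ± 0.09 (adjusted p = 0.00166), with 236 to 283 TPM in ∆*Firre* and 162 to 189 TPM in *Firre* rescue. *Ccr9*, a chemokine receptor of thymus-homing progenitors, was lower by -0.75 ± 0.26 (adjusted p = 0.0649) against ∆*Firre*, a call lost in 9 of 26 alternatives, among them median ratio scaling (-0.63), quantile normalization (-0.67), the GC correction (-0.41), and the fits without ∆*Firre* replicates 9 (-0.58) or 12 (-0.69) or *Firre* rescue replicates 3 (-0.73) or 4 (-0.53). *Mef2c* was lower than in WT by -0.33 ± 0.09 (adjusted p = 0.0329), a difference that the GC correction turned to 0.08. The *Mef2c* call was also lost with median ratio scaling and limma-voom.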
